A study of Homo sapiens with 24 samples.

Results

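The aminoacyl-tRNA synthetases join each amino acid to its own transfer RNA and so supply the charged tRNAs that ribosomes read. Human cells keep a cytosolic set of these enzymes and a mitochondrial set, both encoded in the nucleus, the mitochondrial set serving only the ribosomes inside the organelle. The genes analysed were 36 of the 34213 in the deposited count table, taken by symbol. Of these, 20 were cytosolic (AARS, CARS, DARS, EPRS, FARSA, FARSB, GARS, HARS, IARS, KARS, LARS, MARS, NARS, QARS, RARS, SARS, TARS, VARS, WARS and YARS) and 16, whose symbols end in 2, were mitochondrial (AARS2, CARS2, EARS2, FARS2, HARS2, IARS2, LARS2, MARS2, NARS2, PARS2, RARS2, SARS2, TARS2, VARS2, WARS2 and YARS2). GARS and KARS also make the mitochondrial glycyl and lysyl enzymes, so their counts hold transcripts for both compartments. Many cytosolic synthetase genes are known targets of ATF4, the transcription factor of the amino acid response, which is made when kinases phosphorylate the initiation factor eIF2 alpha. Cells that grow and make more protein usually carry more of these transcripts.

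RNA was sequenced from HEL, a human erythroleukaemia cell line with an activating mutation in JAK2, the kinase that passes on cytokine receptor signals. The cells received ruxolitinib, fedratinib, momelotinib, pacritinib or itacitinib, which are clinical JAK inhibitors, each at 500 nM, or the solvent DMSO. They were collected at 48 h or 4 h, with 2 libraries for each of the 12 groups and 24 in all. All groups are the same line, and the labels do not say whether libraries were separate cultures, so the spread that the p-values rest on may be technical.

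Library totals were 32153866 to 56618281 counts. The blood-cell markers of the line were present in all 24 libraries, with GATA1 at 182 to 234 and ITGA2B at 712 to 926 CPM (counts scaled to the library total by TMM), whereas 9 of 10 markers listed for other cell types, among them KRT8, COL1A1, CD3E and ALB, stayed at or below 1.09 CPM. The other was PECAM1, listed as endothelial and also made by megakaryocytic cells, at 126.5 to 183.5 CPM. Genes were tested with edgeR's quasi-likelihood test over all 16076 genes that passed a filter on low counts, which all 36 synthetase genes did. A gene is said to have passed, or to have risen or fallen, when its Benjamini-Hochberg adjusted p was under 0.05. Fold changes are log2 values with the inhibitor over DMSO at the same time, given ± SE. Over the 10 inhibitor comparisons, 46 of 360 tests of a synthetase gene passed, 32 of them cytosolic and 14 mitochondrial. That is 12.8% of the tests, 32 of 200 for cytosolic genes and 8.75% for mitochondrial genes, against 10.2% over all tested genes. No change reached 2-fold, the largest being 0.65 on the log2 scale, and the median SE was 0.056.

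Levels between genes were compared per length, as CPM per kilobase of exon. The cytosolic genes had a median of 39.7 CPM per kilobase and the mitochondrial genes a median of 7.95. FARSA, the catalytic subunit of phenylalanyl-tRNA synthetase, was the highest at 90.9 CPM per kilobase, followed by NARS at 62.4 and GARS at 55.7, while SARS2 was the lowest at 0.645. IARS2, the mitochondrial isoleucyl enzyme, led its set at 25.0 CPM per kilobase, and 15 of the 20 cytosolic genes lay above it. LARS, RARS, WARS, HARS and CARS were the exceptions, and CARS had only 3.80 CPM per kilobase. The exon lengths were those of all annotated transcripts joined (10037 bases for CARS), so genes with retained introns in the annotation have low values per length. SARS2 rested on 47 to 129 counts in a library, and 1841 of its 3231 exon bases are shared with other counted genes.

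**Figure D1:**
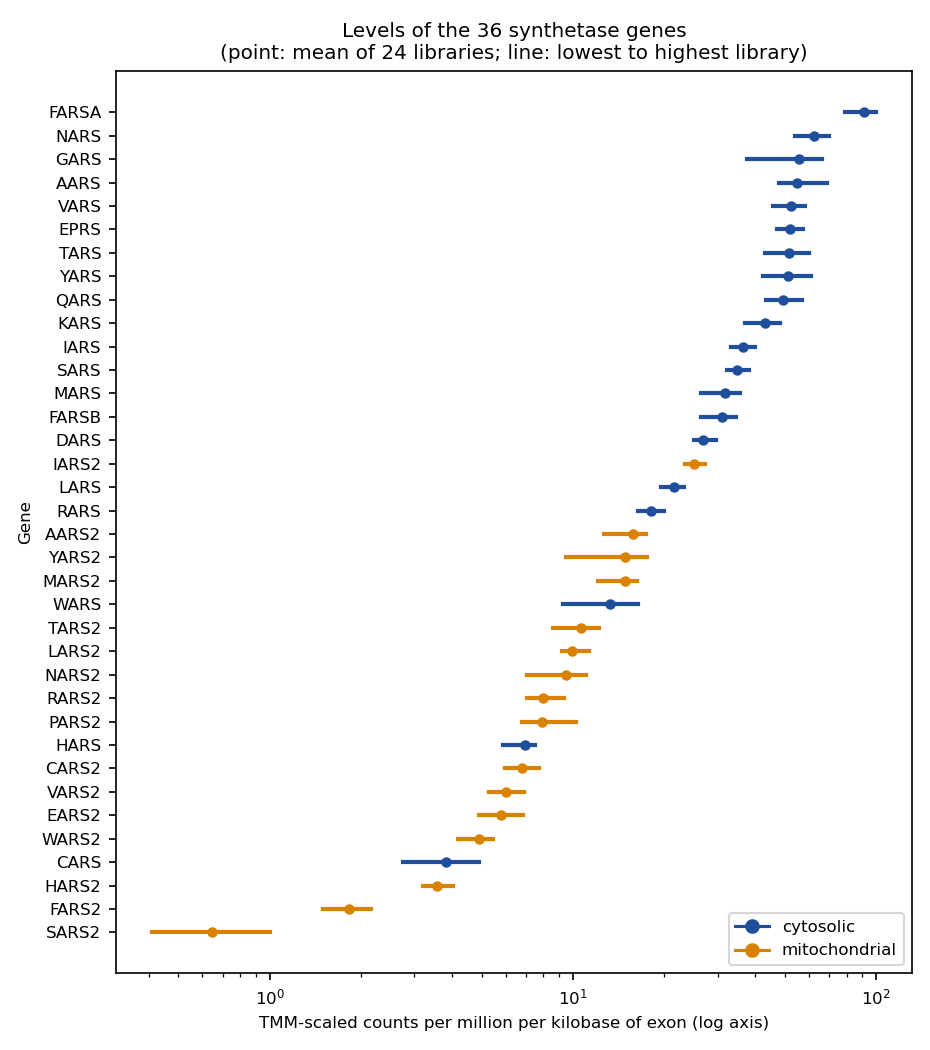
Level of each synthetase gene in CPM per kilobase of exon on a log axis, with the point at the mean of 24 libraries and the line from the lowest to the highest library. Cytosolic genes fill the upper part, from FARSA at 90.9 downwards, and IARS2 at 25.0 is the only mitochondrial gene above LARS.

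Ruxolitinib at 48 h lowered the cytosolic set. Of the 20 cytosolic genes 12 fell and 1 rose, with a median of -0.17, whereas of the 16 mitochondrial genes 1 fell and none rose, with a median of -0.06. Over all tested genes 25.7% passed in this comparison, 13.2% lower and 12.5% higher, with a median of 0.01. In bulk RNA, a smaller share of cells making a transcript and less of it per cell cannot be told apart.

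The glycyl enzyme gene GARS moved most. It had 171 and 156 CPM with ruxolitinib at 48 h, against 211 and 218 CPM with DMSO, a change of -0.39 ± 0.048 (adjusted p = 9.36e-08). No other group had values as low. FARSA and FARSB, which together form the cytosolic phenylalanyl enzyme, fell by similar amounts. FARSA had 193 and 196 CPM with ruxolitinib, against 243 and 226 CPM with DMSO, a change of -0.27 ± 0.050 (adjusted p = 7.31e-05). FARSB had 94.1 and 88.9 CPM with ruxolitinib and 109 and 108 CPM with DMSO, a change of -0.24 ± 0.049 (adjusted p = 0.000248).

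The threonyl and tryptophanyl enzymes followed. TARS had 249.5 and 246 CPM with ruxolitinib at 48 h, against 294 and 301 CPM with DMSO, a change of -0.26 ± 0.048 (adjusted p = 7.59e-05). WARS, which is also an interferon-inducible gene, had 61.1 and 58.8 CPM with ruxolitinib and 73.1 and 70.8 CPM with DMSO, a change of -0.26 ± 0.065 (adjusted p = 0.00246). In all of these genes both ruxolitinib libraries lay below both DMSO libraries. How many of all tested genes separate in this way was not counted. With 2 libraries a group, such separation here and below is a description and adds nothing to the calls.

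Members of the multisynthetase complex, in which several cytosolic enzymes are held together by scaffold proteins, were split. The lysyl gene KARS had 154 and 151 CPM with ruxolitinib and 178 and 182 CPM with DMSO, a change of -0.24 ± 0.043 (adjusted p = 6.78e-05). The methionyl gene MARS had 190.3 and 186 CPM with ruxolitinib and 218 and 219 CPM with DMSO, a change of -0.22 ± 0.043 (adjusted p = 0.000223). The glutaminyl gene QARS went the other way, with 257 and 247 CPM with ruxolitinib and 223 and 211 CPM with DMSO, a change of 0.22 ± 0.047 (adjusted p = 0.000616). QARS was the only cytosolic gene with a positive value in this comparison, and both its ruxolitinib libraries lay above both DMSO libraries. IARS, the isoleucyl enzyme, fell by 0.12 on the log2 scale, while EPRS, LARS, RARS and DARS of the same complex did not pass, with values of -0.05, -0.08, -0.05 and -0.09. Of the 3 scaffold genes, EEF1E1 fell, with -0.38 ± 0.14.

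The remaining cytosolic genes that fell were CARS for cysteine (-0.24 ± 0.082), VARS for valine (-0.19 ± 0.048), NARS for asparagine (-0.18 ± 0.048) and YARS for tyrosine (-0.16 ± 0.041). AARS for alanine did not pass, with 219.8 and 215 CPM with ruxolitinib and 239 and 233 CPM with DMSO, a value of -0.12 ± 0.046 (adjusted p = 0.0577). Together the 20 cytosolic genes took 0.349% and 0.344% of the counts with ruxolitinib at 48 h, against 0.396% in both DMSO libraries. The calls of CARS, IARS, NARS and YARS were lost when 1 library was left out. CARS was lost without ruxolitinib replicate 1 (adjusted p = 0.0856), ruxolitinib replicate 2 (0.124) or DMSO replicate 2 (0.194), and IARS without any 1 of the 4 libraries (0.0998 to 0.2). NARS (0.0757) and YARS (0.0572) were lost without ruxolitinib replicate 2.

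**Figure D2:**
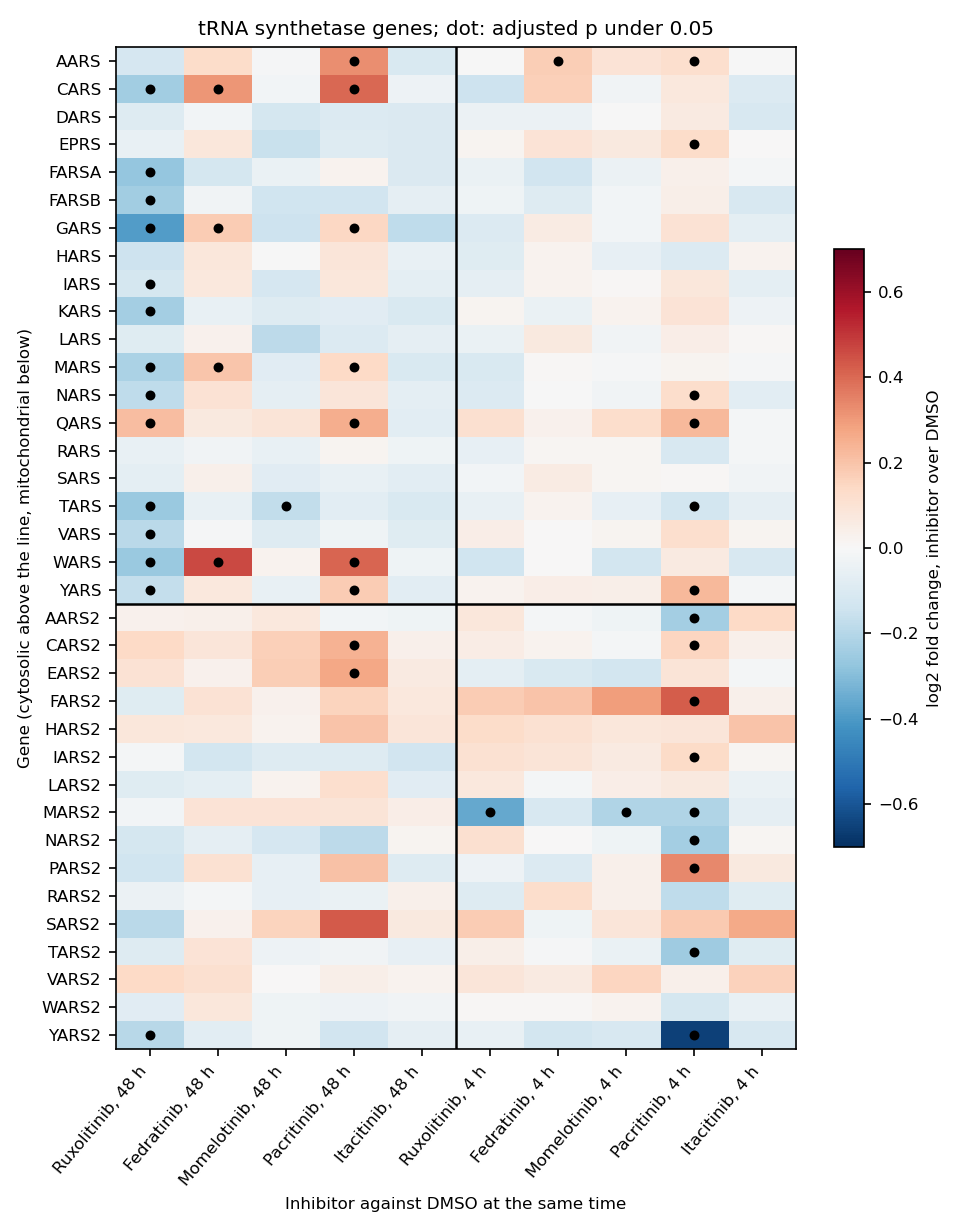
Log2 fold change of each synthetase gene with each inhibitor over DMSO at the same time, on a colour scale from blue (lower) to red (higher), with a dot where the adjusted p was under 0.05. The ruxolitinib column at 48 h is blue over most cytosolic genes, the fedratinib and pacritinib columns hold red cells at WARS and CARS, and the darkest blue cell is YARS2 with pacritinib at 4 h.

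Fedratinib and pacritinib at 48 h raised a smaller group of cytosolic genes and lowered none. Fedratinib raised 4 of 20, with a median of 0.07 over the cytosolic set, where 7.7% of all tested genes passed, 3.66% higher and 4.04% lower. Pacritinib raised 7 of 20, with a median of 0.05, where 18.3% of all tested genes passed, 8.26% higher and 10.1% lower. The median of all tested genes was 0.00 in both comparisons. Both are compared with the same DMSO libraries, so their values are not independent of each other.

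WARS rose most with either inhibitor. At 48 h it had 103 and 95.5 CPM with fedratinib, 105 and 86.4 CPM with pacritinib and 73.1 and 70.8 CPM with DMSO. The change was 0.46 ± 0.063 (adjusted p = 7.41e-06) with fedratinib and 0.41 ± 0.063 (adjusted p = 1.80e-05) with pacritinib. Every library of either inhibitor lay above both DMSO libraries of 48 h, although the pacritinib libraries were far apart. The WARS mean with DMSO was 93.8 CPM at 4 h and 71.9 CPM at 48 h. In the same order it was 94.3 and 99.2 CPM with fedratinib and 98.0 and 95.5 CPM with pacritinib. No test set an inhibitor at 48 h against the same inhibitor at 4 h. CARS had 38.9 and 42.9 CPM with fedratinib, 46.2 and 41.1 CPM with pacritinib and 32.0 and 34.1 CPM with DMSO. The change was 0.31 ± 0.079 (adjusted p = 0.0129) with fedratinib and 0.40 ± 0.079 (adjusted p = 0.000435) with pacritinib. From 4 h to 48 h the CARS mean went from 41.4 to 33.0 CPM with DMSO. It went from 46.4 to 40.9 CPM with fedratinib and from 43.4 to 43.7 CPM with pacritinib.

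AARS, QARS and YARS rose with pacritinib at 48 h and did not pass with fedratinib. AARS, which charges alanine, had 309 and 283 CPM with pacritinib and 239 and 233 CPM with DMSO, a change of 0.33 ± 0.046 (adjusted p = 3.92e-06). Fedratinib gave 261 and 255 CPM for AARS, a value of 0.13 ± 0.046 (adjusted p = 0.0767) that did not pass. QARS had 268 and 249 CPM with pacritinib, 233 and 221 CPM with fedratinib and 223 and 211 CPM with DMSO. Its change was 0.25 ± 0.047 (adjusted p = 0.000187) with pacritinib and 0.07 ± 0.047 (adjusted p = 0.458) with fedratinib. The difference between fedratinib and pacritinib was not tested here.

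GARS and MARS rose with both inhibitors, by less. GARS had 248 and 237 CPM with fedratinib, 240.2 and 234 CPM with pacritinib and 211 and 218 CPM with DMSO, with changes of 0.18 ± 0.047 and 0.14 ± 0.047 in that order. MARS had 251 and 249.9 CPM with fedratinib, 249 and 234 CPM with pacritinib and 218 and 219 CPM with DMSO, with changes of 0.19 ± 0.043 and 0.14 ± 0.043. In both genes no inhibitor library overlapped the DMSO libraries of 48 h. From 4 h to 48 h the GARS mean went from 256 to 214 CPM with DMSO. It went from 267 to 242 CPM with fedratinib and from 275 to 237 CPM with pacritinib. YARS, the tyrosyl enzyme, had 463 and 435 CPM with pacritinib and 400.2 and 394 CPM with DMSO, a change of 0.18 ± 0.041 (adjusted p = 0.00241). Exons of MARS overlap DDIT3 and ARHGAP9 on the other strand (874 of 7028 bases), and without a stated strand their reads cannot be told apart.

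Of the 4 fedratinib calls, those of CARS, GARS and MARS ended when some 1 library was left out. Without DMSO replicate 1 or DMSO replicate 2, 1 of 20 cytosolic genes passed. Without fedratinib replicate 1, 2 passed, and without fedratinib replicate 2, 3 passed. CARS had an adjusted p of 0.179 without fedratinib replicate 2, and GARS had 0.25 and MARS 0.0603 without fedratinib replicate 1. WARS passed in each of these fits. Of the 7 pacritinib calls, those of AARS, CARS, QARS and WARS passed in each fit with a library left out. GARS was lost without any 1 of the 4 libraries (adjusted p = 0.0813 to 0.247), MARS without pacritinib replicate 1 (0.336), DMSO replicate 1 (0.134) or DMSO replicate 2 (0.126), and YARS without pacritinib replicate 1 (0.116) or DMSO replicate 2. The number passing was then 4 without pacritinib replicate 1 or DMSO replicate 2, against 7 with all libraries. The share of counts taken by the RN7SL genes, the RNA of the signal recognition particle, was 4.67% and 4.42% with fedratinib and 4.52% and 4.76% with pacritinib, against 3.05% and 3.36% with DMSO at 48 h. When only protein-coding genes were fitted, every fedratinib and pacritinib call at 48 h passed.

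**Figure D3:**
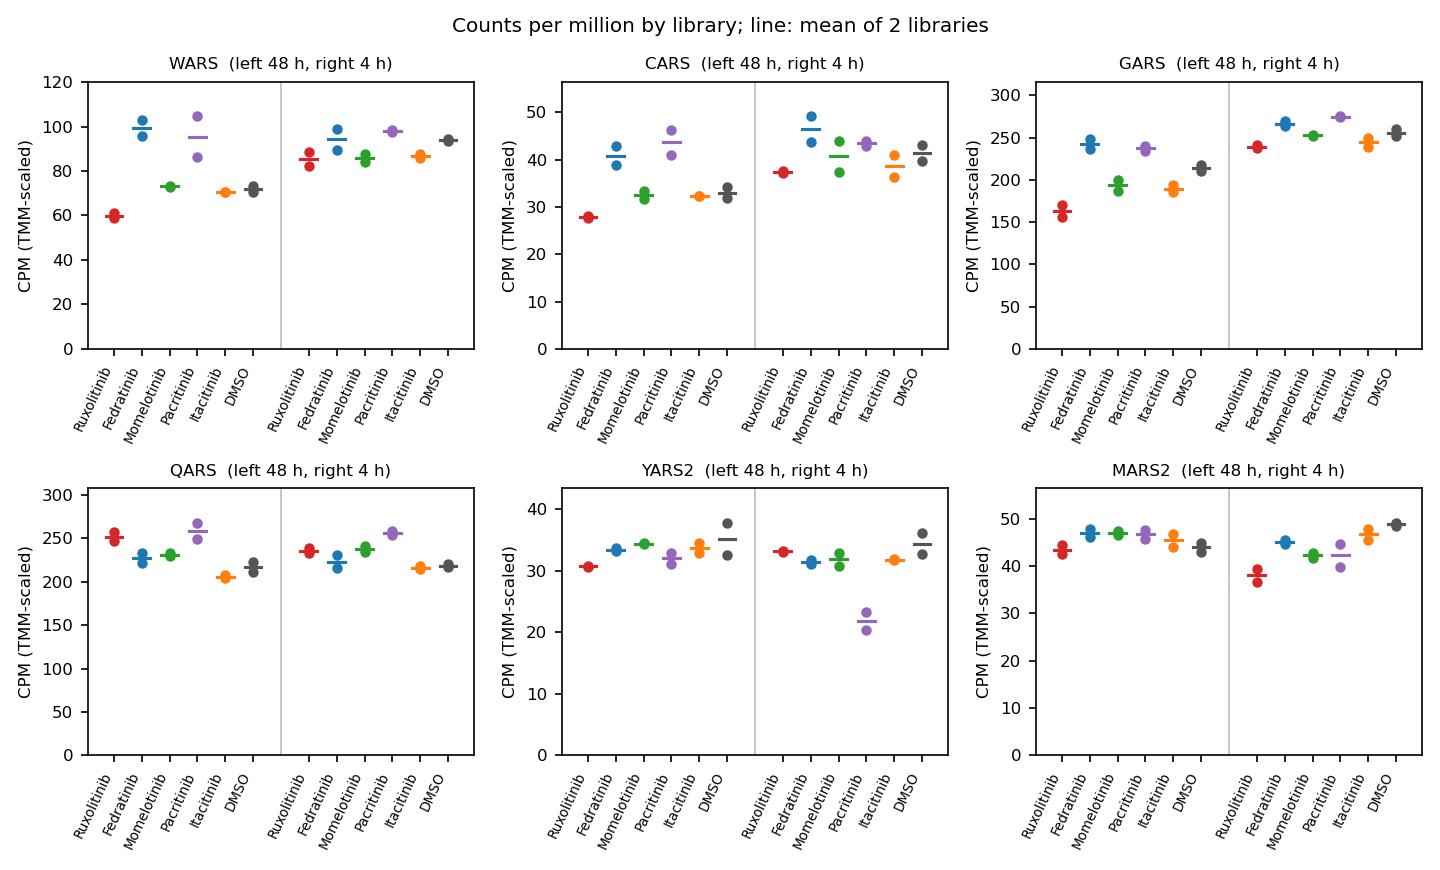
TMM-scaled CPM of 4 cytosolic genes (WARS, CARS, GARS, QARS) and 2 mitochondrial genes (YARS2, MARS2) in each library, with 48 h on the left and 4 h on the right of each panel, a point for each library and a line at the mean of 2. WARS, CARS and GARS are lowest with ruxolitinib at 48 h, and at 48 h they are higher with fedratinib and pacritinib than with DMSO. YARS2 has 20.4 and 23.3 CPM with pacritinib at 4 h, below all other libraries.

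Few cytosolic genes passed with momelotinib or itacitinib at 48 h, and the medians of the set were below 0. With momelotinib 1 of 20 cytosolic genes passed, where 1.94% of all tested genes did, 0.995% higher and 0.946% lower, and the median was -0.08. TARS had 264 and 263 CPM with momelotinib and 294 and 301 CPM with DMSO, a change of -0.17 ± 0.048 (adjusted p = 0.0496), lost without any 1 of the 4 libraries (0.143 to 0.324). With itacitinib none of 20 passed in edgeR, 1 did in DESeq2 and 8 had an unadjusted p under 0.05, where 0.442% of all tested genes passed. All 20 values with itacitinib were negative, from -0.18 to -0.03, with a median of -0.07. GARS had 185 and 193 CPM with itacitinib, below both DMSO libraries, with a value of -0.18 ± 0.047 (adjusted p = 0.0931) that did not pass. With momelotinib GARS was also below both DMSO libraries, with a value of -0.15 ± 0.047 (adjusted p = 0.104).

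The promoters of the synthetase genes were read from RefSeq (GRCh38.p14), as windows of 300 bases around the annotated start. A window was found for 30 of the 36 genes, 16 cytosolic and 14 mitochondrial. DARS, LARS, VARS, YARS, AARS2 and VARS2 were not matched. The windows were searched on both strands for TGATGNAA, the core of the element that ATF4 binds together with C/EBP factors, for CACGTG, the E-box bound by MYC and related factors, and for the palindromic element of NRF1, a regulator of nuclear genes for mitochondria. TGATGNAA was in 6 of 16 cytosolic windows (37.5%), those of AARS, CARS, IARS, MARS, NARS and TARS, and in 1 of 14 mitochondrial windows (7.14%), that of YARS2. It was in 3.62% of all 35116 promoter windows. CACGTG was in 1 cytosolic and 3 mitochondrial windows, against 7.26% of all, and the NRF1 element was in 3 of each set, against 5.78% of all. A match describes the letters only, and the windows say nothing about binding in these cells.

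The sequences printed are 2 cytosolic windows with the ATF4 core whose genes rose with pacritinib at 48 h, 2 whose genes moved in the same way without it in the window, and the window of YARS2, the mitochondrial gene that moved most. They lie at chr11:3057374-3057673 (minus strand), chr12:57487818-57488117 (plus), chr7:30594485-30594784 (plus), chr14:100376278-100376577 (minus) and chr12:32755848-32756147 (minus). Each runs 5′ to 3′ along the gene, and capitals mark TGATGNAA or its reverse complement.
CARS: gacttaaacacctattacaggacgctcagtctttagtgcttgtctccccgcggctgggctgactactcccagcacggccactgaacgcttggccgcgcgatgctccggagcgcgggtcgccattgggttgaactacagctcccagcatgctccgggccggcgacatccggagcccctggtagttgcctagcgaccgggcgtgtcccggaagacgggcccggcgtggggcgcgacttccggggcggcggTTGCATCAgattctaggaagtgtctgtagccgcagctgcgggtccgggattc
MARS: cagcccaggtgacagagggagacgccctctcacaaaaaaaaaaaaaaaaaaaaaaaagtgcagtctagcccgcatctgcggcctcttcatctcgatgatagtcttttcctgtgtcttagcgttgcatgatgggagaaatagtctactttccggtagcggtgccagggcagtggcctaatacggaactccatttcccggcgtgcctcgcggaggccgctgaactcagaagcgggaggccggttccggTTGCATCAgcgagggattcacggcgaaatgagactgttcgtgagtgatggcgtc
GARS: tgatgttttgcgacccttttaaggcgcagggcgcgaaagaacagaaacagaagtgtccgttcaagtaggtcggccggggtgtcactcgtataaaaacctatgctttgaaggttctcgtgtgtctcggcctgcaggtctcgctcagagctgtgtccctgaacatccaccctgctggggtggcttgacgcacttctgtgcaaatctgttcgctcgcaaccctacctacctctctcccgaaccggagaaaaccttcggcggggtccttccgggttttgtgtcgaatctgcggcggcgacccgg
WARS: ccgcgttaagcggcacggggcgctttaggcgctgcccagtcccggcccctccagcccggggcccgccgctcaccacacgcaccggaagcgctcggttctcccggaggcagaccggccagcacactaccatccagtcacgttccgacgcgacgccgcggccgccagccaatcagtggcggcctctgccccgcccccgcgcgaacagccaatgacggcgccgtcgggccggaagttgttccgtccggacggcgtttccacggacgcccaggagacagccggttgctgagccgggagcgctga
YARS2: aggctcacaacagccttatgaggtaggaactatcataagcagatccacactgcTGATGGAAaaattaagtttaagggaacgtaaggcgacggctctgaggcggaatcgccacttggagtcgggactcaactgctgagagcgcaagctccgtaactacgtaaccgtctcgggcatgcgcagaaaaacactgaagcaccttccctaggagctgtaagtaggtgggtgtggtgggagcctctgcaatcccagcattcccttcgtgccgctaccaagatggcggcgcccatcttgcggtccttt
The core began at position -2 in CARS and -4 in MARS, both as TTGCATCA, and at -197 in YARS2 as TGATGGAA, counted from the annotated start at 1. Of the 6 cytosolic genes with the core, AARS, CARS and MARS rose with pacritinib at 48 h and IARS, NARS and TARS did not pass, with 0.08, 0.08 and -0.07. Of the 10 cytosolic genes with a window and no core, 3 rose with pacritinib at 48 h, GARS, QARS and WARS. With ruxolitinib at 48 h, CARS, IARS, MARS, NARS and TARS fell and AARS did not pass, while of the 10 without the core 5 fell and 1 rose.

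The other genes of the amino acid response were given as a list of 29, of which 27 were tested. With ruxolitinib at 48 h 12 of the 27 fell and 1 rose, with a median of -0.24, where 13.2% of all tested genes were lower and 12.5% higher. DDIT4, an inhibitor of mTORC1, changed by -1.09 ± 0.15 and TRIB3, a pseudokinase induced by ATF4, by -0.59 ± 0.085, while the transcription factor gene ATF5 rose by 0.50 ± 0.064. With fedratinib 16 rose and none fell, with a median of 0.31, where 3.66% of all tested genes were higher. With pacritinib 16 rose and none fell, with a median of 0.30, where 8.26% were higher. CHAC1, which degrades glutathione, changed by 1.78 ± 0.17 with fedratinib and 1.54 ± 0.18 with pacritinib. PHGDH, the entry enzyme of serine synthesis, changed by 1.02 ± 0.071 with fedratinib and 1.21 ± 0.071 with pacritinib. These changes are larger than those of any synthetase gene in the same comparison.

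Transcripts of ATF4 itself were measured as well. ATF4 had 357 and 359 CPM with ruxolitinib, 422 and 409 with fedratinib and 494 and 444 with pacritinib at 48 h, against 359 and 352 CPM with DMSO. It rose by 0.23 ± 0.046 with fedratinib and 0.40 ± 0.046 with pacritinib, and did not pass with ruxolitinib, at 0.01 ± 0.046. Of 10 amino acid transporter genes, 4 fell and 1 rose with ruxolitinib, 7 rose and none fell with fedratinib, and 7 rose and 1 fell with pacritinib at 48 h. Over all tested genes 13.2% were lower and 12.5% higher with ruxolitinib, 3.66% higher with fedratinib and 8.26% higher with pacritinib. SLC7A11, the cystine importer, changed by -0.49 ± 0.12 with ruxolitinib, 0.50 ± 0.11 with fedratinib and 0.67 ± 0.11 with pacritinib. SLC38A1, a glutamine carrier, changed by -0.72 ± 0.067 with ruxolitinib.

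The neighbouring parts of the translation machinery were counted in the same way, against 13.2% lower and 12.5% higher over all tested genes with ruxolitinib at 48 h. Of 16 genes for tRNA processing and export, 4 fell with ruxolitinib at 48 h, among them the tRNA methyltransferase NSUN2 (-0.27 ± 0.043), and none rose. Of 15 genes of RNA polymerase III, which transcribes the tRNAs, and its control, 4 fell with ruxolitinib, led by the subunit POLR3G (-0.45 ± 0.077), and 1 rose, the repressor MAF1 (0.22 ± 0.050). Of 15 cytosolic translation factors tested, 3 fell and 2 rose with ruxolitinib, and of 16 mitochondrial ones 2 fell and none rose. Of 8 genes for the eIF2 alpha kinases and their regulators, 1 fell and 2 rose with ruxolitinib, 1 rose with fedratinib and 2 rose with pacritinib at 48 h, with none lower under those 2 inhibitors, where 3.66% and 8.26% of all tested genes were higher.

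At 4 h the cytosolic set had few changes outside pacritinib. With ruxolitinib, momelotinib and itacitinib no cytosolic gene passed in edgeR or DESeq2, with 3, 3 and 2 at an unadjusted p under 0.05 in that order, where 8.47%, 6.0% and 0.778% of all tested genes passed. The shares were 3.42% higher and 5.04% lower with ruxolitinib and 2.21% higher and 3.79% lower with momelotinib. With fedratinib 1 cytosolic gene passed, where 1.59% of all tested genes did, 0.616% higher and 0.97% lower. This was AARS, with 268 and 274 CPM with fedratinib and 235 and 245 CPM with DMSO, a change of 0.17 ± 0.046 (adjusted p = 0.0464) that was lost without any 1 of the 4 libraries (0.15 to 0.325). With pacritinib 6 of 20 passed, of which 5 rose and 1 fell, with a median of 0.07. That is about the share over all tested genes, where 30.6% passed, 13.1% higher and 17.4% lower. QARS had 254 and 258 CPM with pacritinib at 4 h and 217 and 219.9 CPM with DMSO, a change of 0.23 ± 0.046 (adjusted p = 0.000276). YARS had 501 and 492 CPM with pacritinib and 430.0 and 419 CPM with DMSO, a change of 0.23 ± 0.041 (adjusted p = 7.03e-05).

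QARS and YARS thus rose with pacritinib at 4 h as well as at 48 h, and these 2 calls at 4 h passed with any 1 library left out. EPRS, AARS and NARS rose by 0.13, 0.12 and 0.12 on the log2 scale, and TARS fell by 0.13. AARS and NARS were lost without any 1 of the 4 libraries, at adjusted p of 0.0623 to 0.326 for AARS and 0.109 to 0.212 for NARS. EPRS was lost without pacritinib replicate 2 (0.365), DMSO replicate 1 (0.299) or DMSO replicate 2 (0.0637), and TARS without pacritinib replicate 1 (0.107), pacritinib replicate 2 (0.159) or DMSO replicate 2 (0.233). Only 2 or 3 cytosolic genes passed with pacritinib at 4 h when any 1 of these 4 libraries was left out, against 6 with all.

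The mitochondrial genes changed mainly with pacritinib at 4 h. Of the 16, 4 rose and 5 fell with pacritinib at 4 h, against the 13.1% higher and 17.4% lower over all tested genes, with a median of 0.05. YARS2, the mitochondrial tyrosyl enzyme whose inherited defects cause myopathy with sideroblastic anaemia, had 23.3 and 20.4 CPM with pacritinib at 4 h and 36.1 and 32.8 CPM with DMSO. The change of -0.65 ± 0.074 (adjusted p = 3.49e-08) was the largest of any synthetase gene in any comparison with DMSO. In the other libraries YARS2 ranged from 30.5 to 37.8 CPM, so both pacritinib libraries at 4 h lay below all others. At 48 h pacritinib gave 31.2 and 32.8 CPM for YARS2 and DMSO gave 32.6 and 37.8 CPM, a value of -0.14 ± 0.073 (adjusted p = 0.21).

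The others that fell were AARS2, TARS2, NARS2 and MARS2. AARS2, the mitochondrial alanyl enzyme, had 56.1 and 54.5 CPM with pacritinib and 65.4 and 65.1 CPM with DMSO at 4 h, a change of -0.24 ± 0.056 (adjusted p = 0.00123). TARS2 for threonine had 39.3 and 34.9 CPM with pacritinib and 43.9 and 44.3 CPM with DMSO, a change of -0.25 ± 0.067 (adjusted p = 0.00451). Their pacritinib libraries lay below both DMSO libraries. NARS2 for asparagine changed by -0.24 ± 0.073 and MARS2 for methionine by -0.21 ± 0.061.

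FARS2, PARS2, CARS2 and IARS2 rose. FARS2, the mitochondrial phenylalanyl enzyme, had 10.14 and 10.01 CPM with pacritinib and 7.28 and 7.72 CPM with DMSO at 4 h, a change of 0.42 ± 0.12 (adjusted p = 0.00528). PARS2 for proline had 23.2 and 24.1 CPM with pacritinib and 19.4 and 18.2 CPM with DMSO, a change of 0.33 ± 0.082 (adjusted p = 0.0021). CARS2 for cysteine and IARS2 for isoleucine changed by 0.15 ± 0.055 and 0.13 ± 0.045. AARS2, PARS2 and YARS2 passed with any 1 library left out. Without pacritinib replicate 2, 4 of the 9 calls were left, with MARS2 at an adjusted p of 0.248, NARS2 at 0.289, TARS2 at 0.164, CARS2 at 0.0823 and IARS2 at 0.186. Without DMSO replicate 2, 5 genes passed, MARS2 being at 0.0657, NARS2 at 0.142, CARS2 at 0.117 and IARS2 at 0.113. Without DMSO replicate 1, 6 genes passed, FARS2 being at 0.0549, CARS2 at 0.166 and IARS2 at 0.106, and CARS2 was at 0.152 without pacritinib replicate 1.

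MARS2 passed with 3 inhibitors at 4 h. It had 36.6 and 39.5 CPM with ruxolitinib, 42.8 and 41.7 CPM with momelotinib, 44.7 and 39.8 CPM with pacritinib and 48.6 and 49.1 CPM with DMSO. The change was -0.36 ± 0.062 (adjusted p = 0.000124) with ruxolitinib and -0.21 ± 0.061 (adjusted p = 0.0337) with momelotinib, the only mitochondrial gene to pass with either at 4 h. With fedratinib and itacitinib it had 44.7 and 45.5 CPM and 47.9 and 45.6 CPM, and did not pass. All of these libraries lay below both DMSO libraries, which are shared by the 5 comparisons. The ruxolitinib call passed with any 1 library left out, and the momelotinib call was lost without any 1 of the 4 (0.07 to 0.209). No mitochondrial gene passed with fedratinib at 4 h in either edgeR or DESeq2, and none had an unadjusted p under 0.05, where 1.59% of all tested genes passed. With itacitinib at 4 h none passed in edgeR or DESeq2, and 3 had an unadjusted p under 0.05, where 0.778% of all tested genes passed.

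At 48 h the mitochondrial set held 3 calls. Pacritinib raised CARS2 and EARS2, 2 of 16 with a set median of 0.06, where 18.3% of all tested genes passed and 8.26% were higher. CARS2 had 80.6 and 80.9 CPM with pacritinib and 68.3 and 68.4 CPM with DMSO, a change of 0.24 ± 0.055 (adjusted p = 0.00216). EARS2, the mitochondrial glutamyl enzyme, had 39.1 and 38.7 CPM with pacritinib and 34.0 and 30.6 CPM with DMSO, a change of 0.27 ± 0.069 (adjusted p = 0.00551). EARS2 was lost without pacritinib replicate 1 (0.0579) or DMSO replicate 2 (0.174), whereas CARS2 passed with any 1 library left out. YARS2 fell with ruxolitinib, with 30.8 and 30.5 CPM against 32.6 and 37.8 CPM with DMSO, a change of -0.20 ± 0.073 (adjusted p = 0.0453). It was 1 of 16, where 25.7% of all tested genes passed. This call rested on DMSO replicate 2, without which its adjusted p was 0.55, and was also lost without ruxolitinib replicate 1 (0.126) or replicate 2 (0.163).

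No mitochondrial gene passed with fedratinib, momelotinib or itacitinib at 48 h in edgeR, where 7.7%, 1.94% and 0.442% of all tested genes did in that order. DESeq2 called 1 with fedratinib and none with momelotinib or itacitinib, and 1, 2 and 1 had an unadjusted p under 0.05 with fedratinib, momelotinib and itacitinib. SARS2 had the highest mitochondrial value at 48 h, with 2.43 and 3.23 CPM with pacritinib and 1.82 and 2.402 CPM with DMSO, but at this depth its value of 0.43 ± 0.25 (adjusted p = 0.261) did not pass.

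The balance of the sets was described by the mean log2 CPM of the 20 cytosolic genes minus that of the 16 mitochondrial genes. At 48 h it was 2.38 ± 0.00 with ruxolitinib, 2.55 ± 0.01 with fedratinib, 2.41 ± 0.01 with momelotinib, 2.51 ± 0.07 with pacritinib, 2.43 ± 0.01 with itacitinib and 2.51 ± 0.02 with DMSO (SD, n = 2 each). At 4 h it was 2.56 ± 0.03 with ruxolitinib, 2.64 ± 0.02 with fedratinib, 2.61 ± 0.01 with momelotinib, 2.71 ± 0.06 with pacritinib, 2.56 ± 0.05 with itacitinib and 2.62 ± 0.02 with DMSO. The ruxolitinib, momelotinib and itacitinib libraries at 48 h all lay below the DMSO libraries of that time, and the lowest values were those of ruxolitinib. Pacritinib at 4 h had the highest values, in both libraries above both DMSO libraries. Each gene had equal weight in these means, also SARS2 with its 47 to 129 counts in a library. SARS2 had 1.32 and 2.89 CPM with itacitinib at 4 h, which widened the SD of that group. The mitochondrial mean itself ranged from 4.74 to 4.93 over the 24 libraries and the cytosolic mean from 7.17 to 7.49.

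**Figure D4:**
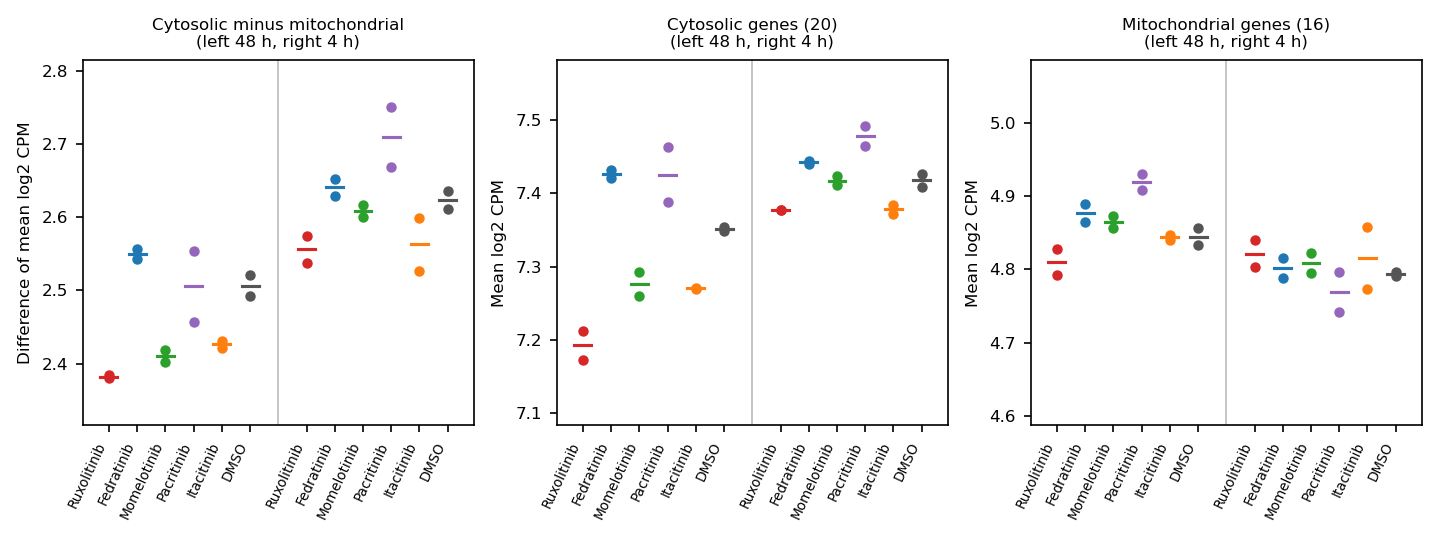
Mean log2 CPM of the cytosolic genes minus that of the mitochondrial genes (left panel), and the mean of either set (middle and right), in each library, with 48 h left and 4 h right in each panel, points for libraries and a line at the mean of 2. The ruxolitinib libraries at 48 h, at 2.38 in both, are the lowest in the left panel.

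For 13 amino acids a cytosolic and a mitochondrial gene form a pair of 1 gene each. With ruxolitinib at 48 h the cytosolic gene had the lower fold change in 10 of the 13 pairs, with a median difference of -0.15. The widest gaps were at CARS and CARS2, with -0.24 and 0.14, and at VARS and VARS2, with -0.19 and 0.14. With fedratinib at 48 h the cytosolic gene had the lower value in 3 pairs and the higher in 10, and with pacritinib it had the lower in 5 and the higher in 8. With momelotinib and itacitinib at 48 h it had the lower value in 10 and 11 pairs. The 5 comparisons share the DMSO libraries. With pacritinib at 4 h the tyrosine pair was widest apart, with 0.23 for YARS and -0.65 for YARS2, and at alanine and asparagine the cytosolic gene rose where the mitochondrial gene fell. At HARS and HARS2 the genes overlap on opposite strands, so reads of the pair cannot be fully told apart.

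The inhibitors were also set against ruxolitinib at the same dose and time, in 8 comparisons, with p-values adjusted over all genes tested within each. At 48 h fedratinib had 14 cytosolic genes higher and 1 lower, where 20.6% of all tested genes passed, 10.5% higher and 10.1% lower, and pacritinib had 13 higher and none lower, where 24.6% did, 11.8% higher and 12.8% lower. WARS differed most from ruxolitinib, by 0.73 ± 0.064 (adjusted p = 1.28e-10) with fedratinib and by 0.67 ± 0.064 (adjusted p = 8.09e-10) with pacritinib. GARS differed by 0.57 ± 0.048 with fedratinib and 0.54 ± 0.048 with pacritinib, CARS by 0.55 ± 0.081 and 0.64 ± 0.081 in that order. The gene lower with fedratinib was QARS, at -0.15 ± 0.047 (adjusted p = 0.02), while QARS with pacritinib did not pass, at 0.04 ± 0.046 (adjusted p = 0.627). Among mitochondrial genes, PARS2 was higher with fedratinib and with pacritinib, and LARS2 was higher with pacritinib. Of the 15 cytosolic calls with fedratinib 10 passed with any 1 library left out, and of the 13 with pacritinib 8 did. The PARS2 call with fedratinib was lost without any 1 of the 4 libraries.

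Momelotinib at 48 h had 5 cytosolic genes above ruxolitinib and none below, where 21.0% of all tested genes passed, 10.7% higher and 10.3% lower. They were FARSA, GARS, KARS, MARS and WARS, with differences from 0.14 for MARS to 0.28 for WARS. KARS and MARS each passed in 1 of 4 fits with a library left out, and 3 synthetase genes passed without ruxolitinib replicate 2, momelotinib replicate 1 or momelotinib replicate 2. Itacitinib shares the pyrrolopyrimidine ring system of ruxolitinib, and at 48 h it had 6 cytosolic genes higher and 1 lower, where 21.9% of all tested genes passed, 10.2% higher and 11.7% lower. GARS had 185 and 193 CPM with itacitinib and 171 and 156 CPM with ruxolitinib, a difference of 0.21 ± 0.048 (adjusted p = 0.0011). QARS had 208 and 204 CPM with itacitinib and 257 and 247 CPM with ruxolitinib, a difference of -0.29 ± 0.046 (adjusted p = 1.32e-05). The QARS libraries of the 2 inhibitors did not overlap, and QARS was the only one of the 7 to pass in all 4 fits with a library left out. Without ruxolitinib replicate 2 only 2 synthetase genes passed, and without ruxolitinib replicate 1 only 4.

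At 4 h the pairs were closer. Momelotinib and ruxolitinib differed in no synthetase gene by edgeR or DESeq2, 3 had an unadjusted p under 0.05, and 0.722% of all tested genes passed. The 95% interval of the difference, from its SE, ran from -0.02 to 0.17 for GARS and from 0.03 to 0.27 for MARS2. Itacitinib differed from ruxolitinib in MARS2 alone, at 0.30 ± 0.062 (adjusted p = 0.0024), where 5.9% of all tested genes passed, 3.61% higher and 2.29% lower, and this was lost without ruxolitinib replicate 1. Fedratinib had AARS, CARS and MARS2 above ruxolitinib, where 3.52% of all tested genes passed, 2.12% higher and 1.4% lower, but none of the 3 passed without ruxolitinib replicate 1 or fedratinib replicate 1. Pacritinib had 8 cytosolic genes above ruxolitinib and none below, and 1 mitochondrial gene above and 4 below, where 25.6% of all tested genes passed, 11.1% higher and 14.5% lower. Of those 13, GARS, NARS, YARS, AARS2, NARS2, PARS2 and YARS2 passed with any 1 library left out, with YARS2 at -0.60 ± 0.075 (adjusted p = 2.86e-07).

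The changes against DMSO were also compared between times, as the change at 48 h minus that at 4 h. With ruxolitinib this difference passed for 7 cytosolic genes, all with more negative values at 48 h, and for 1 mitochondrial gene, MARS2, with a less negative one, where 8.72% of all tested genes passed, 4.32% higher and 4.4% lower. With fedratinib it passed for WARS, higher, and IARS2, lower, where 4.12% of all tested genes passed, 2.0% higher and 2.12% lower. With pacritinib it passed for 5 cytosolic genes, 3 higher and 2 lower, and 4 mitochondrial genes, 3 higher and 1 lower, where 17.9% of all tested genes passed, 10.3% higher and 7.58% lower. Among the cytosolic genes, GARS differed most with ruxolitinib, by -0.30 ± 0.067 (adjusted p = 0.00307), and among the mitochondrial genes YARS2 did with pacritinib, by 0.52 ± 0.10 (adjusted p = 0.000565). Without 1 library, the number passing was 2 to 5 with ruxolitinib, lowest without ruxolitinib replicate 1 at 4 h or replicate 2 at 48 h, and 2 to 8 with pacritinib, lowest without pacritinib replicate 2 at 4 h. With fedratinib it was 1 without any 1 library. The numbers passing without 1 library can include genes that did not pass with all libraries. TARS with ruxolitinib, IARS2 with fedratinib and AARS2 with pacritinib were lost whichever of the 8 libraries was left out. KARS with ruxolitinib, WARS with fedratinib and YARS2 with pacritinib passed each time. No synthetase gene passed with momelotinib or itacitinib in edgeR, where 2.33% and 0.0124% of all tested genes did. DESeq2 called 2 with momelotinib and none with itacitinib, and an unadjusted p was under 0.05 for 1 cytosolic and 4 mitochondrial genes with momelotinib and for 2 mitochondrial genes with itacitinib.

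Without inhibitor, 3 cytosolic genes were lower at 48 h than at 4 h and 1 mitochondrial gene was higher, where 8.16% of all tested genes passed, 4.04% higher and 4.12% lower. WARS had 73.1 and 70.8 CPM at 48 h and 94.4 and 93.3 CPM at 4 h with DMSO, a change of -0.38 ± 0.063 (adjusted p = 0.000139). GARS had 211 and 218 CPM at 48 h and 252 and 260.1 CPM at 4 h, a change of -0.25 ± 0.047 (adjusted p = 0.000609). CARS had 32.0 and 34.1 CPM at 48 h and 43.0 and 39.7 CPM at 4 h, a change of -0.32 ± 0.079 (adjusted p = 0.00834), and did not pass without DMSO replicate 1 at 48 h (0.112) or at 4 h (0.101). WARS, CARS and GARS are thus the genes that moved over time in DMSO as well as with ruxolitinib, fedratinib and pacritinib at 48 h, comparisons that share the DMSO libraries of 48 h. NARS2 changed by 0.25 ± 0.072, a call lost without any 1 of the 4 libraries. In the same comparison 13 of the 27 tested genes of the amino acid response fell and none rose, with a median of -0.27, and 6 of 10 amino acid transporters fell.

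The spread of the 12 group means shows how unequal the genes were. On the log2 scale the range between the highest and the lowest group mean was 0.75 for GARS, 0.73 for CARS, 0.73 for WARS and 0.68 for YARS2, and 0.13 for RARS. GARS was highest with pacritinib at 4 h and lowest with ruxolitinib at 48 h. Ruxolitinib at 48 h was also the lowest group of WARS and CARS. The median range was 0.32 for cytosolic and 0.37 for mitochondrial genes. In none of the 10 inhibitor comparisons did DARS, HARS, LARS, RARS, SARS, HARS2, LARS2, RARS2, SARS2, VARS2 or WARS2 pass, 5 cytosolic and 6 mitochondrial genes. Among the cytosolic 5, the largest value was -0.19 for LARS with momelotinib at 48 h.

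In GRCh38 coordinates (GENCODE 29), the genes whose values are given most fully were WARS (ENSG00000140105) on chromosome 14 from 100333788 to 100376805, GARS (ENSG00000106105) on chromosome 7 from 30594681 to 30634033, CARS (ENSG00000110619) on chromosome 11 from 3000922 to 3057613, QARS (ENSG00000172053) on chromosome 3 from 49095932 to 49105135, MARS2 (ENSG00000247626) on chromosome 2 from 197705369 to 197708387 and YARS2 (ENSG00000139131) on chromosome 12 from 32727490 to 32755902. Values are counts over the whole gene. Exons of 11 of the 36 genes overlap another counted gene, and 11 have a named pseudogene, among them AARS, CARS, GARS and WARS, whose reads could be shared with the copy.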

How the data were processed

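The 24 RNA sequencing libraries fell into 12 groups of 2. Per the submitters' processing notes, bcl2fastq, STAR 2.5.1a, edgeR and the build GRCh38 were used. The authors deposited 1 table of whole-number read counts per gene. The sources used here name no counting tool, annotation or strand setting. The table had 34343 entries, of which 130 repeated an identifier with identical values and were used once. Coordinates and exon lengths came from GENCODE 29 and promoter windows from RefSeq.

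Counts were filtered with filterByExpr, scaled by TMM and fitted with 1 mean per group in edgeR 4.0.16 (glmQLFit, glmQLFTest; limma 3.58.1, R 4.3.3). P-values were adjusted by Benjamini-Hochberg over 16076 genes and passed under 0.05. The SE is the absolute log2 fold change divided by the square root of F. CPM are TMM-scaled, and mean log2 CPM used a prior count of 2. The test was tried on simulated counts for ruxolitinib against DMSO at 4 h. It recovered 55.2% of changes of 1.25-fold (0.32 on the log2 scale), 91.0% of 1.5-fold and 97.0% of 2-fold. Only 200 of the 16076 genes were changed, picked above a low level, whereas 1361 passed in this comparison of the data. The rates therefore need not hold for the data. Most synthetase changes that passed were smaller than 1.25-fold, and such sizes were not simulated. The 36 genes, the other 8 lists (113 genes), the tests and the alternatives were chosen with earlier results of these data known. All 36 genes could be named. Full values are given for up to 12 cytosolic and 8 mitochondrial genes that passed in most inhibitor comparisons, and in other lists for up to 4 genes per direction. ATF4 and DDIT3, and single members beyond the full-value genes, were named after their values were seen.

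Alternatives were RLE scaling, no or a stricter low-count filter (1 CPM in 6 libraries), a replicate block, fits to 1 time point only, DESeq2 1.42.0 and each library left out in turn, where the lone library of a group is assumed to vary like the others. A fit to protein-coding genes only was chosen after seeing the data. Replicates differed by more than sampling noise (chi-square of 3.57 to 15.9 per gene).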

Additional observations from a re-analysis of the deposited data

Results flagged for a closer look

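The change against DMSO differed between 48 h and 4 h, by edgeR's test of the difference itself, for 19 combinations of a synthetase gene and an inhibitor. Values are the log2 change at 48 h minus that at 4 h. Over all tested genes the difference passed for 8.72% with ruxolitinib, 4.12% with fedratinib and 17.9% with pacritinib. In edgeR it passed for no synthetase gene with momelotinib or itacitinib, where 2.33% and 0.0124% of all genes passed. DESeq2 called 2 with momelotinib and none with itacitinib, and an unadjusted p was under 0.05 for 1 cytosolic and 4 mitochondrial genes with momelotinib and for 2 mitochondrial genes with itacitinib. The DMSO libraries enter every one of these differences.

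With ruxolitinib the difference was -0.30 for GARS, -0.26 for KARS, -0.24 for VARS, -0.22 for FARSA, -0.22 for FARSB, -0.21 for TARS and -0.19 for YARS, all 7 cytosolic and all more negative at 48 h. MARS2, which fell at 4 h and not at 48 h, had 0.34. With fedratinib it was 0.46 for WARS, whose change was 0.46 at 48 h and 0.01 at 4 h, and -0.22 for IARS2.

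With pacritinib it was 0.34 for WARS, 0.33 for CARS and 0.21 for AARS, which were higher against DMSO at 48 h than at 4 h, and -0.22 for EPRS and -0.17 for KARS. Among mitochondrial genes it was 0.52 for YARS2, 0.30 for MARS2 and 0.22 for AARS2, whose falls at 4 h did not pass at 48 h, and -0.22 for IARS2. The AARS2 difference was lost without any 1 of the 8 libraries (adjusted p = 0.0714 to 0.172), with RLE scaling (0.0592), with no low-count filter (0.108) and with DESeq2 (0.0572). TARS with ruxolitinib and IARS2 with fedratinib were also lost without any 1 library, and IARS2 with no low-count filter (0.104). With pacritinib 9 passed with all libraries and fewer with any 1 library left out, the fewest without pacritinib replicate 2 at 4 h. AARS, CARS and AARS2 were lost without pacritinib replicate 1 at 4 h. With ruxolitinib 8 passed with all libraries and 2 to 5 without any 1, the lowest without ruxolitinib replicate 1 at 4 h or replicate 2 at 48 h.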

How the results depend on the processing

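No value of a synthetase gene that passed changed sign in any fit. Of 129 calls over the 24 comparisons and differences, all 129 passed with the replicate block, with the stricter low-count filter and with protein-coding genes only, 128 with DESeq2, 125 with RLE scaling, 112 with no low-count filter, and 95 of 106 with 1 time point only. With 1 library left out, 362 of 592 call and library combinations passed. Replicate numbers did not pair the samples (correlations of -0.038 to 0.048 over 66 pairs of groups), and the replicate block moved the cytosolic count with momelotinib at 48 h to 2, its difference between times to 2 and momelotinib against ruxolitinib at 48 h to 8, against 1, 0 and 5. With RLE the cytosolic counts with fedratinib at 4 h and momelotinib at 48 h were 0, against 1. With no low-count filter, the mitochondrial counts with momelotinib at 4 h and ruxolitinib at 48 h were 0, against 1, the cytosolic count with momelotinib at 48 h was 2, and the differences between times numbered 1 with fedratinib and 1 with momelotinib, against 2 and 0. With the stricter filter and with protein-coding genes only, the mitochondrial count with ruxolitinib at 48 h was 2 and the difference with momelotinib numbered 1. Protein-coding genes only gave 8 for momelotinib against ruxolitinib at 48 h. With 1 time point the counts were 0 for cytosolic with fedratinib at 4 h, 0 for mitochondrial with momelotinib at 4 h, 2 for mitochondrial with ruxolitinib at 48 h, 3 for cytosolic with momelotinib at 48 h and 1 for fedratinib against ruxolitinib at 4 h. DESeq2 gave 1 mitochondrial gene with fedratinib at 48 h, 1 cytosolic with itacitinib at 48 h, 2 differences with momelotinib and 8 for momelotinib against ruxolitinib at 48 h. The cause of these moves was not tested. With 1 library left out, cytosolic counts were 0 with fedratinib at 4 h, 1 to 3 with fedratinib at 48 h, 0 with momelotinib at 48 h, 2 to 3 with pacritinib at 4 h and 4 to 7 with pacritinib at 48 h. Mitochondrial counts were 0 for DMSO over time, 0 with momelotinib at 4 h, 4 to 8 with pacritinib at 4 h, 1 to 2 with pacritinib at 48 h and 0 to 1 with ruxolitinib at 48 h. Against ruxolitinib, cytosolic and mitochondrial genes were counted together. At 4 h these joint counts were 0 to 1 with fedratinib, 0 to 1 with itacitinib and 8 to 9 with pacritinib. At 48 h they were 3 to 6 with momelotinib and 2 to 6 with itacitinib. Differences between times numbered 1 with fedratinib, 2 to 8 with pacritinib and 2 to 5 with ruxolitinib. With 2 libraries a group, SEs of the synthetase genes between groups were 0.041 to 0.27, so small changes of low genes such as SARS2 were not detectable. Small changes of the other genes could be missed as well.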

Other observations

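Pacritinib at 4 h also moved genes of the translation machinery outside the synthetases. All 15 genes of RNA polymerase III and its control had negative values, with a median of -0.20, and 9 fell, against 17.4% of all tested genes. POLR3G, a subunit of the enzyme, had 18.6 and 18.0 CPM with pacritinib and 26.0 and 27.1 CPM with DMSO, a change of -0.53 ± 0.078. POLR3B, the second-largest subunit, changed by -0.51 ± 0.073. Of 15 cytosolic translation factors tested, 8 rose and none fell, against 13.1% higher over all genes. Among these factors, EIF4B had 852 and 902 CPM with pacritinib against 734 and 722 CPM with DMSO. EIF2AK3, the eIF2 alpha kinase of the endoplasmic reticulum known as PERK, had 10.9 and 9.74 CPM with pacritinib and 19.3 and 17.7 CPM with DMSO, a change of -0.84 ± 0.099.

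The amino acid response was split with pacritinib at 4 h, with 9 of 27 tested genes higher and 7 lower. Over all tested genes 13.1% were higher and 17.4% lower. ATF3 changed by -1.44 ± 0.19 and DDIT3, which encodes CHOP, by -0.81 ± 0.11, while CTH, the cystathionine cleaving enzyme, changed by 0.61 ± 0.12. With ruxolitinib at 4 h, where no cytosolic synthetase gene passed, 6 of 10 amino acid transporters fell and none rose, against 5.04% of all tested genes lower. SLC7A5, the carrier of large neutral amino acids, changed by -0.41 ± 0.048, and its partner SLC3A2 by -0.28 ± 0.05. With momelotinib at 4 h 4 of the 10 fell and none rose, against 3.79% of all tested genes lower, with SLC7A5 at -0.32 ± 0.048.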
